A study of Rattus norvegicus with 17 samples.

Results

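The 41 genes described here encode the glutamate and GABA receptors of rat cortical cultures, and were chosen by name alone from the 11247 genes of the deposited table. A gene was taken where its symbol matched a subunit of an AMPA, kainate, NMDA or delta receptor, a metabotropic glutamate receptor, a GABA-A receptor or a GABA-B receptor. That gave 4 AMPA, 5 kainate, 7 NMDA, 2 delta, 8 metabotropic glutamate, 13 GABA-A and 2 GABA-B genes. The cultures were primary rat cerebral cortex, labelled as glutamatergic neurons and astrocytes, and messenger RNA was sequenced in 17 libraries. They were infected with α-synuclein A53T, a variant of the presynaptic protein that causes familial Parkinson's disease, or with an empty vector. They then received DMSO alone, as vehicle, or FK506 at a dose of 0.2 µM, which the labels call sub-saturating, or of 2.0 µM, called saturating. The drug FK506 acts with its cellular partner FKBP12 to inhibit calcineurin, a calcium-dependent phosphatase that activates the transcription factor NFAT. There were 2 libraries of A53T cultures in DMSO, 3 of A53T at 0.2 µM, 3 of A53T at 2.0 µM and 3 each of vector cultures in DMSO, at 0.2 µM and at 2.0 µM. The sources used here do not name the virus, the promoter of the transgene or the age of the cultures.

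AMPA, kainate and NMDA receptors are cation channels, each built from several subunits and opened by glutamate, and they carry most fast excitation in the cortex. Metabotropic glutamate receptors act through G proteins, as do GABA-B receptors, which need both of their subunits. GABA-A receptors are chloride channels of mixed α, β and γ or δ subunits, and the α5 and δ subunits are known from receptors outside synapses.

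All values below are gene counts as the authors normalized them, called normalized counts. Library totals lay between 15091428 and 18335540 normalized counts, and how deeply each library was sequenced is unknown. The 3 libraries of A53T at 0.2 µM differed from each other by 0.993 to 1.04 times Poisson sampling noise, against 1.46 to 13.7 times in pairs of the other groups. Their mean was therefore used as a single sample (n = 1), on the assumption that it varies as other samples do. The labels do not say whether a group's libraries are separate cultures, so p-values rest on the spread among these libraries, possibly a technical one. For A53T in DMSO the sample titles end in 1 and 2 but the table's columns in 1 and 3, and the library of column 3 is called unnumbered here. A further 3 libraries stood apart from their groups. Replicate 1 of vector at 0.2 µM was the lowest of its group in 34 of the 41 receptor genes (38.9% of all genes), replicate 1 of A53T at 2.0 µM in 25 (41.6%) and replicate 2 of vector at 2.0 µM in 26 (43.0%). The labelled cell types had their markers, 14 of 15 glutamatergic neuron genes and 13 of 14 astrocyte genes being in the table, but so did GABAergic neurons with 13 of 16. Of 12 microglia markers 2 were in the table.

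The promoters of 4 receptor genes are shown because these genes carry the main patterns below. Gabra5 fell in every comparison with DMSO or vector, Gabrb1 rose at 2.0 µM FK506 in both genotypes, and Grik1 and Grin2c responded to 2.0 µM by different amounts in A53T and vector cultures. Each sequence covers 250 bases before to 50 after the gene's start, from RefSeq on the later build GRCr8, and is written 5′ to 3′ on the gene's strand. Capitals mark GGAAA, the core that NFAT factors bind, or its complement TTTCC.
Gabra5, chr1:117516557-117516856, minus strand: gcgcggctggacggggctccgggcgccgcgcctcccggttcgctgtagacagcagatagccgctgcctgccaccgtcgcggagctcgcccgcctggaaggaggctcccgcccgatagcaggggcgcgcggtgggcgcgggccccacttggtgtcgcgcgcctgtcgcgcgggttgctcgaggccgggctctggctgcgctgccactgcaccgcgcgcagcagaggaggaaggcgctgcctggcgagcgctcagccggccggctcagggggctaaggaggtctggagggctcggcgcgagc
Gabrb1, chr14:36902844-36903143, minus strand: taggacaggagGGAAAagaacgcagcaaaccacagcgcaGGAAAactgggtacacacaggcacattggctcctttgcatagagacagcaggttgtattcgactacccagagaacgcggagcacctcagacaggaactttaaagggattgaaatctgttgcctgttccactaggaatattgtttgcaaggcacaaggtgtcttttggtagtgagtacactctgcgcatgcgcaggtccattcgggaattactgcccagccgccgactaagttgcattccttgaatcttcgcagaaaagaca
Grik1, chr11:41056454-41056753, minus strand: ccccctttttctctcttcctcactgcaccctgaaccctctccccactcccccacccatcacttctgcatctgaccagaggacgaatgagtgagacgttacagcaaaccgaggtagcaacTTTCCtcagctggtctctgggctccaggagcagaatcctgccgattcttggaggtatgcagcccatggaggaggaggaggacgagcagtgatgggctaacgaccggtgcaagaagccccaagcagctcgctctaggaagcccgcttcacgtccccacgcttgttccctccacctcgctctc
Grin2c, chr10:101005089-101005388, minus strand: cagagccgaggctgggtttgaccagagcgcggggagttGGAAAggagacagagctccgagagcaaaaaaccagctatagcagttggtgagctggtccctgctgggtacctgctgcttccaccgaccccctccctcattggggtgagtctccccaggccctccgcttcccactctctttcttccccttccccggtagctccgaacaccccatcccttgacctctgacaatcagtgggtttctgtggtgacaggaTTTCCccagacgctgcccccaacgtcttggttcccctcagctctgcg
The Gabra5 stretch held no GGAAA on either strand, the Grik1 stretch held 1, and those of Gabrb1 and Grin2c held 2 each. Of the 41 genes 25 had a promoter in the table, and 15 of the 25 (60%) held GGAAA on either strand, against 62.7% of all 33469 promoters. TGACG, the shorter core of the cAMP response element that CREB binds, stood in 3 of the 25 (Grin1, Gabbr2 and Grik2), against 21.2% of all promoters. The whole element TGACGTCA, which contains TGACG, was in none of the 25 and in 1.83% of all. The MEF2 motif was also in none of the 25 and in 3.84% of all, and GCGGGGGCG, the Egr motif, was in 1 (Grin1) and in 2.73% of all. A match describes the letters of this window and shows no binding.

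At 2.0 µM FK506 far more receptor genes fell than rose, in both genotypes. In A53T cultures 20 of the 41 fell and 1 rose against DMSO, while 17.9% of all genes fell and 19.7% rose (37.6% either way, limma with Benjamini-Hochberg adjusted p under 0.05 over all genes). Most of these 21 calls were lost when either A53T DMSO library was left out, which leaves 1 sample in that group. The share of receptor genes called was then near that of all genes. Their median log2 change was -0.48 without replicate 1 of A53T in DMSO and -0.52 without the unnumbered library. In vector cultures 17 of the 41 fell and 2 rose, while 23.8% of all genes fell and 23.4% rose (47.2% either way). The median log2 change of the 41 was -0.56 in A53T and -0.38 in vector cultures, with medians over all genes of 0.01 and 0.00. Groups did not overlap in either direction for most of them. All A53T libraries at 2.0 µM lay below both A53T DMSO libraries in 32 receptor genes (30.6% of all genes) and above them in 3 (33.8%). All vector libraries at 2.0 µM lay below all vector DMSO libraries in 25 (30.3%) and above in 2 (30.2%). Fewer cells of a type and less RNA per cell cannot be told apart in these bulk samples. Summed glutamatergic markers ran from 8846 to 10877 normalized counts in A53T cultures at 2.0 µM, against 17499 to 18151 in A53T DMSO, and from 12498 to 13892 in vector cultures at 2.0 µM, against 21562 to 22543 in vector DMSO. Summed GABAergic markers, at 2.0 µM against DMSO, were 14369.9 to 16345 against 20865 to 21173 in A53T, and 15601 to 17151 against 36536 to 40012 in vector cultures. Summed astrocyte markers, at 2.0 µM against DMSO, were 53129 to 56317 against 88084 to 91315 in A53T, and 48273 to 49032 against 99730.2 to 101756 in vector cultures. Summed microglia markers, at 2.0 µM against DMSO, were higher, at 4376 to 4797 against 2863 to 3009 in A53T, and 3403 to 3690 against 2387 to 2507 in vector cultures. Summed oligodendrocyte lineage markers, at 2.0 µM against DMSO, were 5011 to 5086 against 3697 to 3727 in A53T, and 2369 to 2454 against 4178 to 4269 in vector cultures. Pan-neuronal marker sums overlapped in A53T, at 87948 to 101214 at 2.0 µM against 98661 to 100320 in DMSO. In vector cultures the pan-neuronal sums were 80621 to 84885 at 2.0 µM against 109227 to 114154 in DMSO. The part of these cells in the receptor values was not tested.

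For vector at 0.2 µM, and for A53T against vector in DMSO, the share of receptor genes called was near or below that of all genes, and nothing particular to them is read from it. In vector cultures at 0.2 µM against DMSO 2 rose and 3 fell, while 7.70% of all genes rose and 10.6% fell (18.3% either way). Without replicate 1 of vector at 0.2 µM 10 passed (25.9% of all genes). Without replicate 3 of that group 3 did (8.71%), as without replicate 2 or 3 of vector in DMSO (9.28% and 9.81%). These counts are near the shares of all genes. Without the 3 libraries that stood apart 20 rose and 4 fell (52.4% of all genes passed). At 2.0 against 0.2 µM in vector cultures 1 rose and 20 fell, against 18% and 15.7% of all genes (33.7% either way). A53T against vector in DMSO gave 1 that rose and 5 that fell, against 5.85% and 8.19% (14.0% either way). Fewer receptor genes, and fewer of all genes, passed without the unnumbered A53T DMSO library, which leaves 1 sample in that group. The median log2 change of the 41 was 0.07 with that library and -0.02 without it. Without the 3 libraries that stood apart, none of which is a DMSO library, 9 rose and 9 fell in that comparison (39.0% of all genes passed). In A53T cultures at 0.2 µM against DMSO 27 rose and 4 fell, against 33.6% and 34.2% of all genes (67.8% either way), with a median of 1.12 on the log2 scale. Comparisons with the same DMSO group share its libraries. Groups lay apart upward in 3 genes and downward in 4 for vector at 0.2 µM (17.7% and 21.0% of all genes), in 1 and 22 for 2.0 against 0.2 µM (23.5% and 21.8%), in 13 and 11 for A53T in DMSO (30.1% and 30.3%) and in 30 and 5 for A53T at 0.2 µM (44.7% and 44.6%). Without the 3 libraries that stood apart, 26 fell and 1 rose in A53T at 2.0 µM (48.3% of all genes passed), 20 fell and 2 rose in vector at 2.0 µM (61.2%), and 32 fell and 1 rose at 2.0 against 0.2 µM in vector cultures (48.0%).

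**Figure D1:**
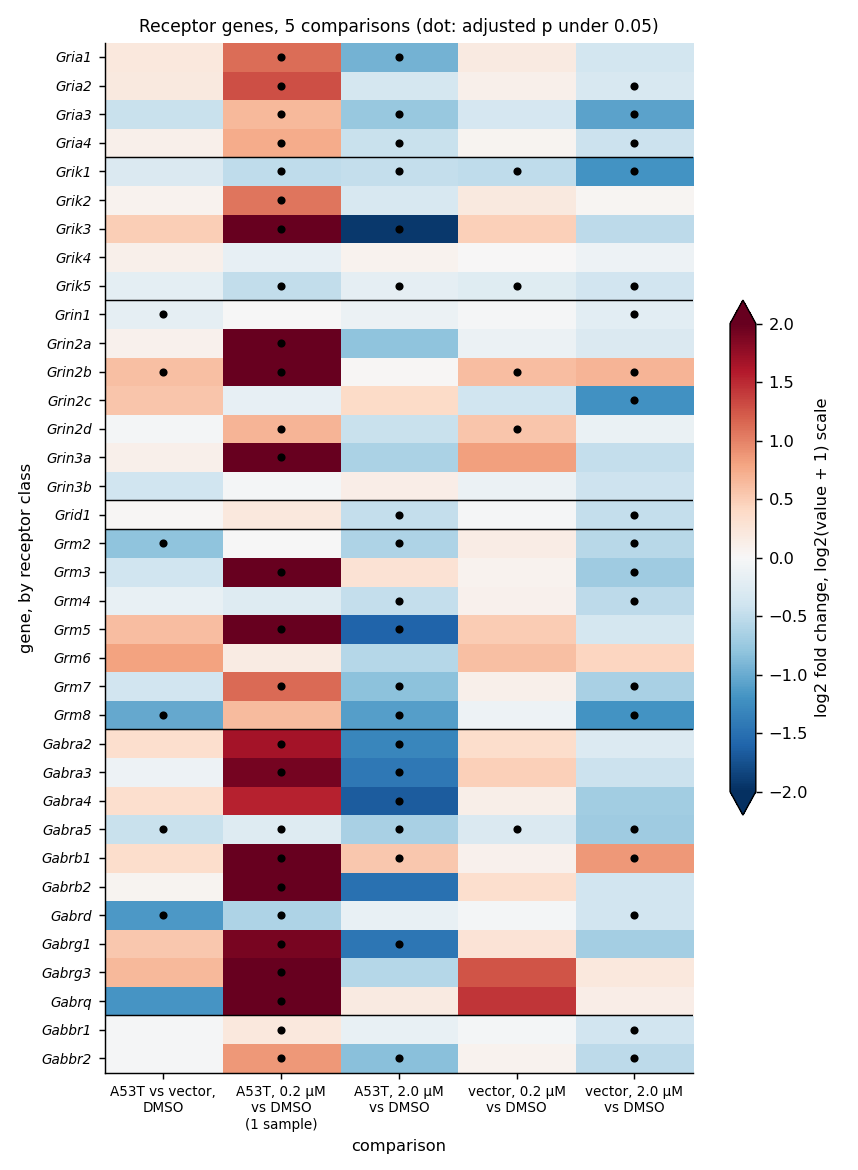
Log2 fold changes of receptor genes, rows by receptor class, in 5 comparisons in columns, red higher and blue lower in the group named first; a dot marks an adjusted p under 0.05. Blue dominates both 2.0 µM columns, and red the column of A53T at 0.2 µM, which rests on 1 sample.

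The AMPA receptor genes fell at 2.0 µM in 3 of 4 cases in each genotype, against 17.9% of all genes in A53T and 23.8% in vector cultures. The difference of the A53T and vector changes passed for none of the 4 (limma, lowest adjusted p = 0.154, for Gria1). Gria3 fell most among them in vector cultures. In A53T cultures its normalized counts were 912 and 862 in DMSO, 1377, 1425 and 1368 at 0.2 µM, and 400.4, 623 and 579 at 2.0 µM. In vector cultures they were 1228, 1386 and 1045 in DMSO, 895, 1088 and 915 at 0.2 µM, and 594, 523 and 618 at 2.0 µM. Every 2.0 µM library lay below every DMSO library of its genotype. Gria3 fell by 0.76 ± 0.17 (adjusted p = 0.00521) on the log2 scale in A53T and fell by 1.07 ± 0.15 (adjusted p = 9.82e-05) in vector cultures.

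Gria1 encodes a subunit added to synapses during potentiation. In A53T cultures it had normalized counts of 1643 and 1827 in DMSO, 3764, 3725 and 3782 at 0.2 µM, and 744, 932 and 1058 at 2.0 µM. The vector libraries held 1629, 1403 and 1460.5 in DMSO, 1255, 2013 and 1932 at 0.2 µM, and 1194, 964 and 1359 at 2.0 µM. The A53T libraries at 2.0 µM all lay well below DMSO, and the vector libraries at 2.0 µM lay just below theirs. Gria1 fell by 0.94 ± 0.20 (adjusted p = 0.00382) in A53T, while the vector value of -0.36 ± 0.18 (adjusted p = 0.116) did not pass. Gria2, whose edited subunit blocks calcium entry, had in A53T cultures normalized counts of 4854 and 4597 in DMSO, 11722, 11362 and 11698 at 0.2 µM, and 3105, 4452 and 3714 at 2.0 µM. Vector cultures had 4237, 4574 and 3671 in DMSO, 4089, 4762 and 4532 at 0.2 µM, and 3398, 3102 and 3519.5 at 2.0 µM. Its 2.0 µM libraries lay below DMSO in both genotypes without overlap. Gria2 fell by 0.31 ± 0.12 (adjusted p = 0.0431) in vector cultures, a call lost in 9 of the 17 fits that each left out 1 library (adjusted p up to 0.163), and in A53T its change of -0.35 ± 0.13 (adjusted p = 0.0539) did not pass. Gria4 fell by 0.45 ± 0.17 (adjusted p = 0.0475) in A53T and fell by 0.43 ± 0.15 (adjusted p = 0.0303) in vector cultures, and these calls were lost in 9 and 4 of 17 such fits (adjusted p up to 0.196 and 0.125).

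Among kainate receptor genes, Grik1 and Grik5 fell in A53T and vector cultures at both doses. Grik1 encodes a subunit that can form channels alone. Its normalized counts in A53T cultures were 353 and 337 in DMSO, 224, 278 and 226 at 0.2 µM, and 239.7, 262 and 238 at 2.0 µM. In vector cultures they were 458, 431 and 384 in DMSO, 277, 305 and 312 at 0.2 µM, and 205, 187 and 161 at 2.0 µM. The vector libraries stepped down from DMSO to 0.2 to 2.0 µM without overlap, and the A53T libraries at both doses lay below DMSO at about the same level. Grik1 fell by 0.50 ± 0.10 (adjusted p = 0.00678) at 0.2 µM and fell by 1.20 ± 0.10 (adjusted p = 1.63e-06) at 2.0 µM in vector cultures. In A53T it fell by 0.48 ± 0.12 (adjusted p = 0.00737) at 2.0 µM, and fell by 0.51 ± 0.16 (adjusted p = 0.0123) at 0.2 µM, both calls being lost without replicate 1 of A53T in DMSO (adjusted p = 0.0627 and 0.0501).

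Grik5 encodes a subunit that needs a partner. In A53T cultures it had normalized counts of 5137 and 5395 in DMSO, 3539.9, 3907 and 3738 at 0.2 µM, and 5038, 4484 and 4466 at 2.0 µM. Its vector values were 5846, 6044 and 6129 in DMSO, 5133, 5101 and 5008 at 0.2 µM, and 4422, 4909.7 and 4553 at 2.0 µM. All treated libraries lay below the DMSO libraries of their genotype, and A53T at 0.2 µM was the lowest group. Grik5 fell by 0.24 ± 0.06 (adjusted p = 0.0139) and fell by 0.38 ± 0.06 (adjusted p = 0.00017) in vector cultures at 0.2 and 2.0 µM, and the first call was lost in 3 of 17 fits without 1 library (adjusted p up to 0.057). In A53T it fell by 0.50 ± 0.09 (adjusted p = 0.00037) at 0.2 µM and fell by 0.18 ± 0.06 (adjusted p = 0.0472) at 2.0 µM, and the last call was lost in 11 of 17 such fits (adjusted p up to 0.255). Grik3 had in A53T cultures normalized counts of 55.4 and 65 in DMSO, 747, 755 and 721 at 0.2 µM, and 4.22, 26 and 27.6 at 2.0 µM. Vector cultures had 66.3, 31.6 and 36.2 in DMSO, 25.8, 102 and 79.6 at 0.2 µM, and 43.8, 18.2 and 31.4 at 2.0 µM. The A53T libraries at 0.2 µM lay above all others by a wide margin, and those at 2.0 µM lay below DMSO. Grik3 fell by 1.94 ± 0.72 (adjusted p = 0.0496) in A53T at 2.0 µM, a call lost in 10 of 17 such fits (adjusted p up to 0.196). Grik2 rose by 1.07 ± 0.22 (adjusted p = 0.00109) in A53T at 0.2 µM, and Grik4 passed in no comparison with DMSO.

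Grid1, a delta receptor gene whose product bridges to presynaptic neurexins, fell by 0.48 ± 0.12 (adjusted p = 0.00717) in A53T cultures at 2.0 µM and fell by 0.47 ± 0.10 (adjusted p = 0.00237) in vector cultures. The A53T call was lost without the unnumbered A53T DMSO library (adjusted p = 0.06).

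**Figure D2:**
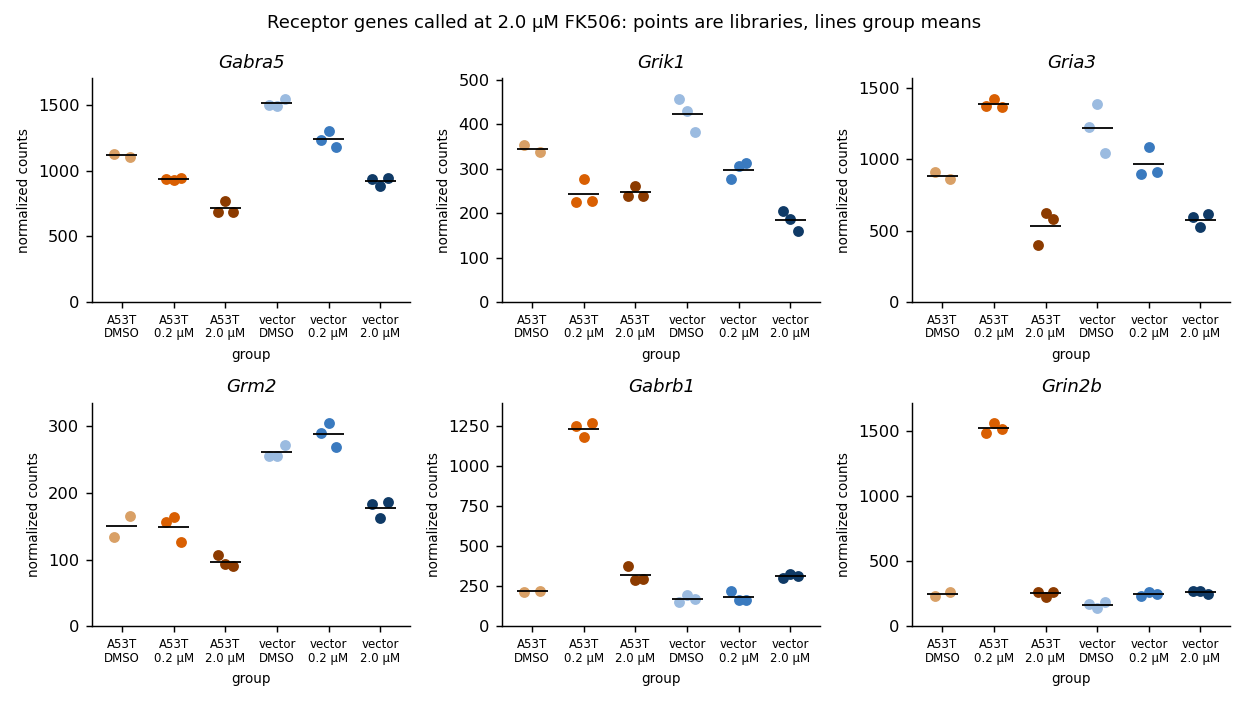
Normalized counts of 6 receptor genes in all 17 libraries, grouped by genotype and dose on linear axes from 0, with points for libraries and lines for group means. Gabra5 and Grik1 lay below DMSO at both doses in each genotype, and Gabrb1 and Grin2b reached their highest values in A53T cultures at 0.2 µM.

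The NMDA receptor genes went in several directions. In vector cultures at 2.0 µM 1 of 7 rose and 2 fell, and in A53T cultures at 2.0 µM none of the 7 passed by limma, with 2 at an unadjusted p under 0.05. The vector count is near the 23.4% of all genes that rose and 23.8% that fell. Grin1 encodes the subunit every NMDA receptor contains. Its normalized counts in A53T cultures were 11281 and 11709.7 in DMSO, 11236, 11605 and 11566 at 0.2 µM, and 10945, 10573 and 10292 at 2.0 µM. In vector cultures they were 12821, 13086 and 13313 in DMSO, 12507, 12909.7 and 13327 at 0.2 µM, and 11135, 11419 and 11454 at 2.0 µM. The range was narrow, with the vector libraries at 2.0 µM and all A53T libraries below the vector DMSO libraries. Grin1 fell by 0.21 ± 0.05 (adjusted p = 0.00275) in vector cultures at 2.0 µM and fell by 0.19 ± 0.05 (adjusted p = 0.0314) in A53T against vector in DMSO, the second call being lost in 5 of 17 fits without 1 library (adjusted p up to 0.251).

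Grin2b, the glutamate-binding subunit gene that dominates early in development, was higher in every other group than in vector cultures in DMSO. A53T cultures had normalized counts of 233 and 264 in DMSO, 1485, 1563 and 1519 at 0.2 µM, and 267, 228 and 264 at 2.0 µM. Vector cultures had 169, 139.7 and 185 in DMSO, 235, 266 and 249.7 at 0.2 µM, and 272, 268 and 248 at 2.0 µM. All other groups lay above the vector DMSO libraries, and A53T at 0.2 µM lay far above the rest. Grin2b rose by 0.61 ± 0.11 (adjusted p = 0.00375) at 0.2 µM and rose by 0.68 ± 0.11 (adjusted p = 0.00031) at 2.0 µM in vector cultures. It rose by 0.60 ± 0.13 (adjusted p = 0.00804) in A53T against vector in DMSO, a call lost without the unnumbered A53T DMSO library (adjusted p = 0.103). In A53T cultures at 2.0 µM its change against DMSO was 0.02 ± 0.13 (adjusted p = 0.888).

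Grin2a, the subunit gene that takes over from Grin2b with maturation, had in A53T cultures normalized counts of 34.4 and 25.6 in DMSO, 819.5, 775 and 830.2 at 0.2 µM, and 18.3, 18 and 13.9 at 2.0 µM. Vector cultures showed 27.7, 27.6 and 28.1 in DMSO, 11.9, 40.3 and 34.5 at 0.2 µM, and 27.3, 17.1 and 24.3 at 2.0 µM. Outside A53T at 0.2 µM it stayed at or below 40.3 in every library. Grin2c had in A53T cultures normalized counts of 207 and 199 in DMSO, 162, 203 and 177 at 0.2 µM, and 304, 281 and 216 at 2.0 µM. Vector cultures had 140.1, 125 and 148 in DMSO, 100.2, 106 and 106 at 0.2 µM, and 64.3, 76.8 and 41.5 at 2.0 µM. The vector libraries stepped down from DMSO to 0.2 to 2.0 µM, while the A53T libraries at 2.0 µM lay above both of theirs in DMSO. Grin2c fell by 1.21 ± 0.19 (adjusted p = 0.00024) in vector cultures at 2.0 µM, and its A53T change of 0.38 ± 0.22 (adjusted p = 0.173) did not pass.

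Grin2d had in A53T cultures normalized counts of 139 and 139 in DMSO, 220.4, 226 and 221 at 0.2 µM, and 79.3, 109 and 124 at 2.0 µM. Vector cultures had 126, 157 and 148 in DMSO, 182, 247 and 208 at 0.2 µM, and 146, 122 and 123 at 2.0 µM. In vector cultures the 0.2 µM libraries lay above the DMSO libraries and those at 2.0 µM overlapped them. Grin2d rose by 0.55 ± 0.17 (adjusted p = 0.0398) in vector cultures at 0.2 µM, a call lost in 8 of 17 fits without 1 library (adjusted p up to 0.158). The glycine-binding Grin3a rose by 2.73 ± 0.48 (adjusted p = 0.000387) in A53T at 0.2 µM, and Grin3b passed in no comparison.

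Among the metabotropic glutamate receptor genes 5 of 8 fell at 2.0 µM in each genotype, against 17.9% of all genes in A53T and 23.8% in vector cultures. Grm2, Grm4, Grm7 and Grm8, of the groups that inhibit adenylyl cyclase, fell in both. Grm2 had in A53T cultures normalized counts of 135 and 165 in DMSO, 156, 164 and 126 at 0.2 µM, and 107, 93 and 91.1 at 2.0 µM. The vector libraries held 255, 255 and 272 in DMSO, 289.7, 304 and 269 at 0.2 µM, and 183, 162 and 186 at 2.0 µM. Each 2.0 µM group lay below its DMSO group, and every A53T library lay below the vector libraries given the same dose. Grm2 fell by 0.62 ± 0.12 (adjusted p = 0.00261) in A53T, a call lost without the unnumbered A53T DMSO library (adjusted p = 0.0513), and fell by 0.55 ± 0.11 (adjusted p = 0.00117) in vector cultures.

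Grm8 had in A53T cultures normalized counts of 54.5 and 53.2 in DMSO, 79.1, 88.3 and 86.2 at 0.2 µM, and 15.7, 33 and 28.7 at 2.0 µM. Its vector values were 107, 130.4 and 96.1 in DMSO, 90.3, 116 and 103 at 0.2 µM, and 55.6, 51.9 and 37.5 at 2.0 µM. The 2.0 µM libraries were the lowest of their genotype and did not overlap DMSO. Grm8 fell by 1.10 ± 0.28 (adjusted p = 0.00966) in A53T and fell by 1.19 ± 0.25 (adjusted p = 0.00167) in vector cultures. Grm7 fell by 0.82 ± 0.21 (adjusted p = 0.01) in A53T and fell by 0.65 ± 0.19 (adjusted p = 0.0114) in vector cultures. Grm4 fell by 0.48 ± 0.13 (adjusted p = 0.0122) in A53T and fell by 0.52 ± 0.11 (adjusted p = 0.00228) in vector cultures. The A53T calls of Grm4, Grm7 and Grm8 were each lost without replicate 1 or without the unnumbered library of A53T in DMSO (adjusted p up to 0.0866, 0.0749 and 0.0613), and the vector call of Grm7 without replicate 1 of vector in DMSO or replicate 2 at 2.0 µM (up to 0.0525).

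Grm5, a receptor of neurons and astrocytes that raises calcium through phospholipase C, fell in A53T cultures at 2.0 µM. Its normalized counts in A53T cultures were 173 and 177 in DMSO, 2480.4, 2414 and 2544 at 0.2 µM, and 39.9, 63 and 73.2 at 2.0 µM. In vector cultures they were 156, 92.8 and 101 in DMSO, 80.4, 243 and 213 at 0.2 µM, and 97.5, 64.5 and 110.3 at 2.0 µM. The A53T libraries at 2.0 µM lay below both DMSO libraries, while the vector groups overlapped. Grm5 fell by 1.60 ± 0.42 (adjusted p = 0.0116) in A53T, a call lost when either A53T DMSO library was left out (adjusted p up to 0.0739), and changed by -0.35 ± 0.38 (adjusted p = 0.47) in vector cultures, which did not pass. Grm3, common in astrocytes, had in A53T cultures normalized counts of 28.1 and 30.9 in DMSO, 144, 131 and 136 at 0.2 µM, and 33.4, 43 and 32.9 at 2.0 µM. Vector cultures showed 43.1, 39.8 and 34.9 in DMSO, 32.7, 44.2 and 48.5 at 0.2 µM, and 18.5, 22.7 and 30.4 at 2.0 µM. The vector libraries at 2.0 µM lay below DMSO and the A53T libraries at 2.0 µM lay above theirs. Grm3 fell by 0.72 ± 0.22 (adjusted p = 0.0152) in vector cultures, a call lost without replicate 1 of vector in DMSO or at 2.0 µM (adjusted p up to 0.0715), and its A53T change of 0.29 ± 0.24 (adjusted p = 0.354) did not pass. Grm6 passed in no comparison.

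Of the 13 GABA-A receptor genes 6 fell and 1 rose at 2.0 µM in A53T cultures, and 2 fell and 1 rose in vector cultures. Over all genes 17.9% fell and 19.7% rose in A53T, and 23.8% fell and 23.4% rose in vector cultures, so the GABA-A count in vector cultures was below that of all genes. Gabra5, the subunit of tonic inhibition, was the only receptor gene that fell in each of the 5 comparisons with DMSO or with vector in DMSO. A53T cultures had normalized counts of 1126 and 1105 in DMSO, 936, 926 and 946 at 0.2 µM, and 688, 771 and 685 at 2.0 µM. Vector cultures had 1500.1, 1492 and 1547 in DMSO, 1231, 1302 and 1182 at 0.2 µM, and 934, 880.3 and 945 at 2.0 µM. Replicates lay close together, the doses stepped down without overlap in each genotype, and each A53T group lay below the vector group of the same dose. Gabra5 fell by 0.29 ± 0.06 (adjusted p = 0.00798) and fell by 0.72 ± 0.06 (adjusted p = 1.5e-06) at 0.2 and 2.0 µM in vector cultures, and fell by 0.25 ± 0.09 (adjusted p = 0.0283) and fell by 0.64 ± 0.07 (adjusted p = 4.59e-05) in A53T cultures. The call at 0.2 µM in A53T was lost when either A53T DMSO library was left out (adjusted p up to 0.0874).

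Gabrb1, a β subunit gene, was the only one of the 41 that rose at 2.0 µM in both genotypes. In A53T cultures it had normalized counts of 216 and 221 in DMSO, 1249.6, 1186 and 1270.1 at 0.2 µM, and 377, 292 and 293 at 2.0 µM. Vector cultures had 150.2, 198 and 169 in DMSO, 223, 164 and 164 at 0.2 µM, and 303, 326 and 312 at 2.0 µM. All 2.0 µM libraries lay above all DMSO libraries of their genotype, and A53T at 0.2 µM was higher still. Gabrb1 rose by 0.54 ± 0.16 (adjusted p = 0.02) in A53T, a call lost when replicate 1 of A53T at 2.0 µM or either A53T DMSO library was left out (adjusted p up to 0.102), and rose by 0.87 ± 0.14 (adjusted p = 0.000309) in vector cultures.

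The α subunit genes Gabra2, Gabra3 and Gabra4 fell in A53T cultures at 2.0 µM and passed in no comparison of vector cultures. Gabra4 had in A53T cultures normalized counts of 268 and 246 in DMSO, 749, 730.3 and 759 at 0.2 µM, and 37.4, 102 and 136 at 2.0 µM. The vector libraries held 271, 186 and 165 in DMSO, 138, 279 and 275 at 0.2 µM, and 158, 74.6 and 166 at 2.0 µM. Gabra3 had in A53T cultures normalized counts of 236 and 267 in DMSO, 931, 951 and 972 at 0.2 µM, and 41.2, 123 and 155 at 2.0 µM. The A53T libraries at 2.0 µM lay below DMSO in both genes, with replicate 1 the lowest. Gabra3 in vector cultures had 299, 254 and 262 in DMSO, 244, 484 and 455 at 0.2 µM, and 235, 142 and 239.8 at 2.0 µM. Gabra4 fell by 1.66 ± 0.50 (adjusted p = 0.0214), Gabra3 fell by 1.43 ± 0.46 (adjusted p = 0.0272) and Gabra2 fell by 1.30 ± 0.29 (adjusted p = 0.00484) in A53T at 2.0 µM. The Gabra3 and Gabra4 calls were lost when either A53T DMSO library was left out (adjusted p up to 0.141 and 0.106), and that of Gabra4 also without replicate 1 of A53T at 2.0 µM.

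Gabrg1, a γ subunit gene, had in A53T cultures normalized counts of 143 and 154 in DMSO, 569, 558 and 542 at 0.2 µM, and 32.3, 71 and 67.8 at 2.0 µM. Vector cultures had 129, 107 and 76.7 in DMSO, 79.4, 136 and 176 at 0.2 µM, and 74.1, 39.7 and 86 at 2.0 µM. The A53T libraries at 2.0 µM lay below DMSO and the vector libraries overlapped theirs. Gabrg1 fell by 1.45 ± 0.42 (adjusted p = 0.0175) in A53T at 2.0 µM, a call lost when either A53T DMSO library was left out (adjusted p up to 0.104).

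Both GABA-B receptor genes fell in vector cultures at 2.0 µM, and Gabbr2 also in A53T cultures. Gabbr1, the GABA-binding subunit gene, had in A53T cultures normalized counts of 15216 and 15270.2 in DMSO, 17630.1, 17508 and 17603 at 0.2 µM, and 13131, 14246 and 13888 at 2.0 µM. The vector libraries held 15508, 15986 and 14766 in DMSO, 14466, 15454 and 15113 at 0.2 µM, and 12036, 11109 and 12346 at 2.0 µM. Its 2.0 µM libraries lay below DMSO in both genotypes. Gabbr1 fell by 0.38 ± 0.06 (adjusted p = 0.000132) in vector cultures, and its A53T change of -0.15 ± 0.06 (adjusted p = 0.0796) did not pass. Gabbr2, which couples the receptor to its G protein, had in A53T cultures normalized counts of 2449 and 2591 in DMSO, 4500.2, 4669.9 and 4614 at 0.2 µM, and 1129, 1685 and 1473 at 2.0 µM. Its vector values were 2722, 2588 and 2376 in DMSO, 2274, 2998 and 2859 at 0.2 µM, and 1962, 1487 and 1929 at 2.0 µM. No library at 2.0 µM reached its DMSO range in either genotype. Gabbr2 fell by 0.84 ± 0.17 (adjusted p = 0.00248) in A53T and fell by 0.52 ± 0.15 (adjusted p = 0.0111) in vector cultures, the vector call being lost without replicate 2 of vector at 2.0 µM (adjusted p = 0.0507).

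At 2.0 µM 11 genes fell in both genotypes, which is 55% of the 20 that fell in A53T and 64.7% of the 17 that fell in vector cultures. They were Gabra5, Grm2, Grm4, Grm7, Grm8, Grik1, Grik5, Grid1, Gabbr2, Gria3 and Gria4. A further 13 passed in neither. How many of all genes fell in both genotypes or passed in neither was not computed. Nothing particular to receptor genes is therefore read from these counts. A call in a single genotype does not show that the genotypes differ, so the difference of the A53T and vector changes was tested. It passed in 3 of the 41 genes, 2 upward and 1 downward, against 8.14% and 6.45% of all genes (14.6% either way). Without the 3 libraries that stood apart it passed in 17 (37.8% of all genes). The difference, A53T change minus vector change, was 1.59 ± 0.29 (adjusted p = 0.0043) for Grin2c, 0.72 ± 0.16 (adjusted p = 0.0111) for Grik1 and -0.66 ± 0.17 (adjusted p = 0.0241) for Grin2b on the log2 scale. The Grin2c value kept its call in all 17 fits without 1 library. That of Grik1 was lost without the unnumbered A53T DMSO library (adjusted p = 0.0613) and that of Grin2b in 5 fits (adjusted p up to 0.123).

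Of the 6 receptor genes called for A53T against vector in DMSO, a count near the 14.0% of all genes, Gabrd changed most. It encodes the δ subunit of receptors outside synapses. A53T cultures had normalized counts of 231 and 217 in DMSO, 159, 141 and 139 at 0.2 µM, and 217, 191 and 199 at 2.0 µM. Vector cultures had 491, 473 and 533 in DMSO, 557, 485 and 428 at 0.2 µM, and 353, 437 and 364 at 2.0 µM. The highest A53T library, at 231, lay below the lowest vector library, at 353. Gabrd fell by 1.15 ± 0.13 (adjusted p = 0.000137) in A53T against vector in DMSO. With FK506 it fell by 0.61 ± 0.17 (adjusted p = 0.00643) in A53T at 0.2 µM and fell by 0.38 ± 0.11 (adjusted p = 0.014) in vector at 2.0 µM, the vector call being lost in 3 of 17 fits without 1 library (adjusted p up to 0.0628). Grm8 fell by 1.02 ± 0.28 (adjusted p = 0.0287), Grm2 fell by 0.80 ± 0.12 (adjusted p = 0.00121) and Gabra5 fell by 0.44 ± 0.07 (adjusted p = 0.00138) in the same comparison, with the library values given above. The Grm8 call was lost in 4 of 17 fits without 1 library (adjusted p up to 0.155).

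At 2.0 µM 4 receptor genes were higher and 4 lower in A53T than in vector cultures, against 9.88% and 9.70% of all genes (19.6% either way). Groups lay apart upward in 5 and downward in 6 genes (17% and 16% of all genes). Without the 3 libraries that stood apart 19 passed (33.5% of all genes). Grin2c rose by 2.14 ± 0.19 (adjusted p = 2.17e-05) and Grik1 rose by 0.42 ± 0.10 (adjusted p = 0.0145) in A53T against vector at 2.0 µM. Gabrd fell by 0.92 ± 0.11 (adjusted p = 0.000186), Grm8 fell by 0.92 ± 0.25 (adjusted p = 0.022), Grm2 fell by 0.86 ± 0.11 (adjusted p = 0.000268) and Gabra5 fell by 0.36 ± 0.06 (adjusted p = 0.0018). Those 4 are also the genes with the largest called falls in DMSO, and the libraries behind the comparisons are different. The smaller rises were in Grik4, by 0.27 ± 0.08 (adjusted p = 0.0259), and in Gabbr1, by 0.22 ± 0.06 (adjusted p = 0.0188). Without 1 library the calls of Grik1, Grik4 and Gabbr1 were each lost in 2 of 17 fits and that of Grm8 in 3 (adjusted p up to 0.0622, 0.114, 0.0669 and 0.0887). Summed GABAergic markers ran from 20865 to 21173 normalized counts in A53T DMSO, against 36536 to 40012 in vector DMSO, where 6 of the 13 fell (8.19% of all genes). The other cell type sums were also lower in A53T in DMSO, apart from microglia. At 2.0 µM the GABAergic sums overlapped, at 14370 to 16345 in A53T and 15601 to 17151 in vector cultures, and 2 of the 13 fell (9.70% of all genes). Glutamatergic and fibroblast and vascular sums were lower there in A53T, and the other cell type sums higher. The part of these marker genes in the receptor values was not tested.

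**Figure D3:**
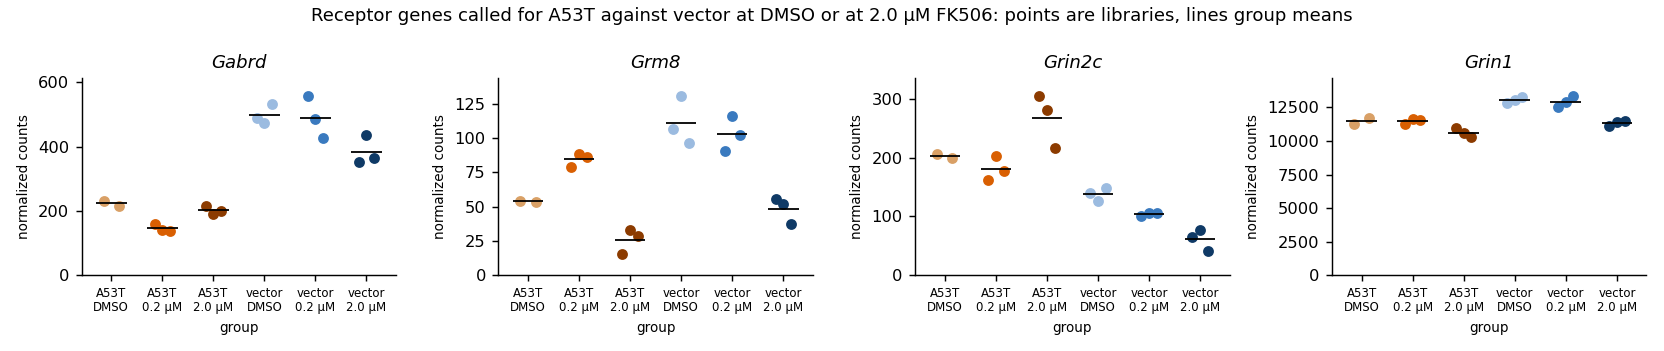
Normalized counts of Gabrd, Grm8, Grin2c and Grin1 in all 17 libraries on linear axes from 0, points for libraries and lines for group means. Gabrd lay lower in every A53T library than in any vector library, and Grin2c parted at 2.0 µM, with 216 to 304 normalized counts in A53T against 41.5 to 76.8 in vector cultures.

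A53T cultures at 0.2 µM had the highest values of many receptor genes. The sample lay above all 14 other libraries in 27 of the 41 (65.9%), against 34.8% of all genes, and below all of them in 2 (4.88%), against 32.4%. All AMPA genes (4 of 4) and both GABA-B genes rose, as did 4 of 7 NMDA, 4 of 8 metabotropic, 10 of 13 GABA-A and 2 of 5 kainate genes, against 33.6% of all genes. The rise of Gabbr1 was lost in 10 of 17 fits without 1 library (adjusted p up to 0.114). The rises of Gria3 and Grin2d were lost when either A53T DMSO library was left out (adjusted p up to 0.0758 and 0.0786), and that of Gabra3 without replicate 1 of A53T in DMSO (adjusted p = 0.0505). The falls were in Gabra5, Gabrd, Grik1 and Grik5. All of this rests on 1 sample.

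The genes that changed most were GABA-A genes and Grin2a. Gabrb2 had in A53T cultures normalized counts of 26.2 and 43.7 in DMSO, 1009.5, 973 and 1023 at 0.2 µM, and 8.06, 19 and 9.62 at 2.0 µM. Vector cultures showed 45.4, 28.6 and 26.9 in DMSO, 16.9, 74.8 and 56.2 at 0.2 µM, and 21.4, 13.7 and 51.6 at 2.0 µM. No library outside A53T at 0.2 µM passed 74.8. Gabrb2 rose by 4.84 ± 0.84 (adjusted p = 0.000356) there, and Grin2a rose by 4.72 ± 0.54 (adjusted p = 2.92e-05). Gabrg3 had in A53T cultures normalized counts of 9.88 and 8.6 in DMSO, 191, 168 and 186 at 0.2 µM, and 6.77, 7 and 4.32 at 2.0 µM. The vector libraries held 6.77, 2.07 and 10.7 in DMSO, 7.93, 22 and 17.2 at 0.2 µM, and 3.86, 5.82 and 12.2 at 2.0 µM.

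Gabrq, the θ subunit gene, had in A53T cultures normalized counts of 0.815 and 0.0522 in DMSO, 41.4, 31.4 and 29 at 0.2 µM, and 0.213, 0.000402 and 2.18 at 2.0 µM. Its vector values were 5.58, 3.08 and 0.127 in DMSO, 2.97, 9.61 and 13.1 at 0.2 µM, and 1.92, 2.38 and 3.05 at 2.0 µM. Both A53T DMSO values were under 1, so its fitted rise of 4.66 ± 1.03 (adjusted p = 0.00175) depends on the pseudocount of 1. Gabrg3 rose by 4.16 ± 0.78 (adjusted p = 0.000569) and Grm5 rose by 3.82 ± 0.57 (adjusted p = 0.000142) in A53T at 0.2 µM. Summed glutamatergic markers were 22317 to 22772 in A53T at 0.2 µM, against 17499 to 18151 in A53T DMSO, and pan-neuronal markers were 89309 to 90244 in A53T at 0.2 µM, against 98661 to 100320 in A53T DMSO. Astrocyte markers summed to 66049 to 66581 in A53T at 0.2 µM, against 88084 to 91315 in A53T DMSO, GABAergic markers summed to 18471 to 18757 in A53T at 0.2 µM, against 20865 to 21173 in A53T DMSO, and the part of these marker genes in the receptor values was not tested.

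**Figure D4:**
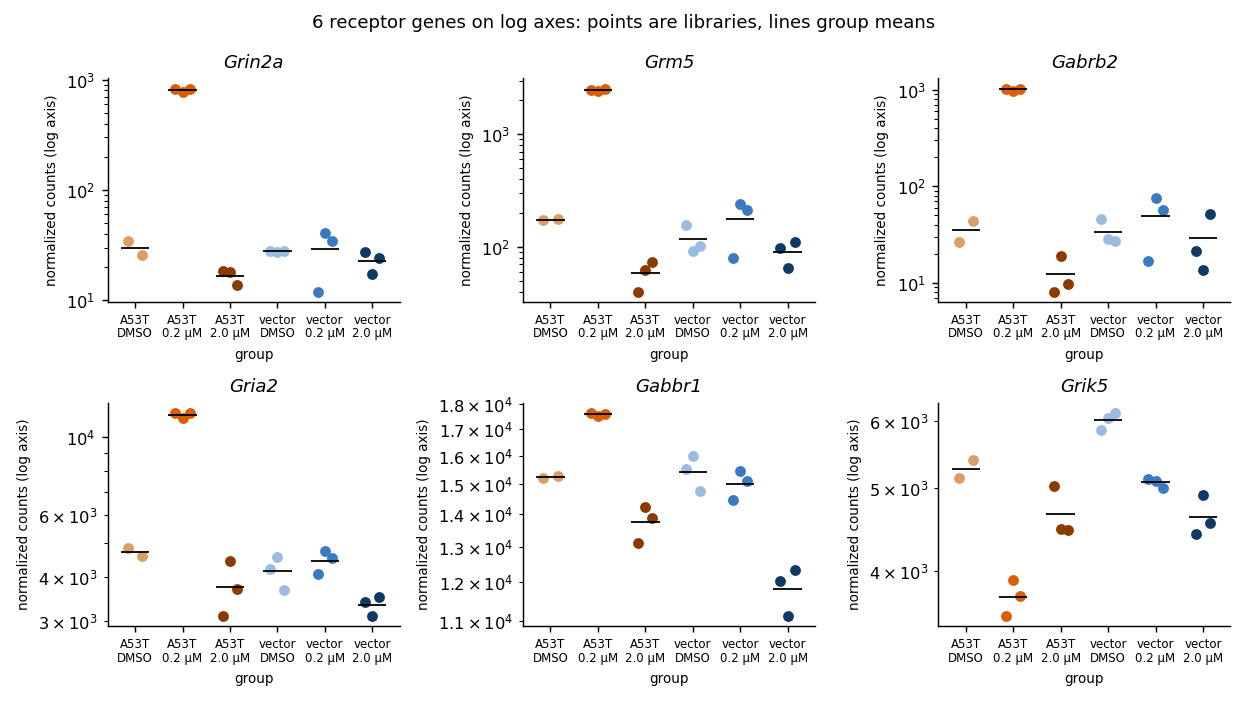
Normalized counts of 6 receptor genes in all 17 libraries on log axes, points for libraries and lines for group means. Grin2a reached 775 to 830 in A53T at 0.2 µM against 25.6 and 34.4 in A53T DMSO, Gabbr1 moved little by comparison, and Grik5 was lowest there.

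Log2 ratios of subunit pairs, taken within each library as differences of log2(value + 1), were compared in 4 comparisons by a two-sided exact permutation test, 16 tests in all. With 3 against 3 libraries the smallest p is 0.1, and none of the 16 passed (lowest adjusted p = 0.356). The ratio of Grin2a over Grin2b, which rises with maturation, averaged -3.85 ± 0.29 in A53T at 2.0 µM (SD, n = 3), against -3.02 ± 0.42 in A53T DMSO (n = 2). It averaged -3.49 ± 0.35 in vector at 2.0 µM against -2.51 ± 0.19 in vector DMSO (SD, n = 3 each). Vector at 0.2 µM, at -4.19, -2.69 and -2.82, lay narrowly below vector DMSO, at -2.56, -2.30 and -2.67. The lowest value there was that of replicate 1, which stood apart and held 11.9 normalized counts of Grin2a. A53T in DMSO, at -2.72 and -3.31, also lay below vector DMSO without overlap. The ratio was higher in the A53T libraries at 0.2 µM, at -0.86, -1.01 and -0.87, than in A53T DMSO, a comparison with no test here. In A53T at 2.0 µM against DMSO the log2 ratio differed by 0.69 for Gabbr1 over Gabbr2 and by -0.60 for Gria1 over Gria2, both without overlap.

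Some GABA-A genes stand beside another one with no other protein-coding gene between them in RefSeq. Neighbours did not always move together. Gabrb1 rose in both genotypes at 2.0 µM, while its neighbour Gabra4 fell in A53T and had -0.69 ± 0.45 (adjusted p = 0.226) in vector cultures. Gabra5, which fell, stands beside Gabrg3, at -0.56 ± 0.58 (adjusted p = 0.449) in A53T and 0.22 ± 0.52 (adjusted p = 0.756) in vector cultures. In A53T at 0.2 µM Gabrg3 rose while Gabra5 fell. The neighbours Gabra2 and Gabrg1 both fell in A53T at 2.0 µM.

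**Figure D5:**
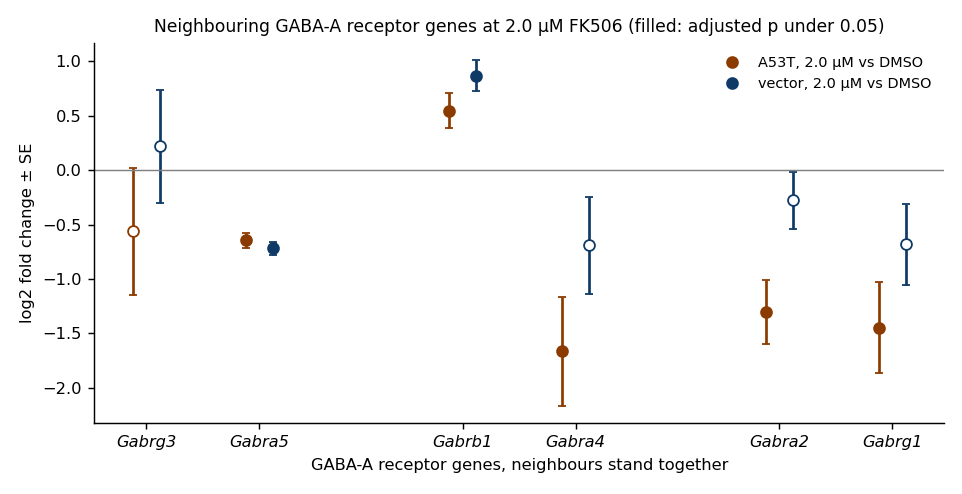
Log2 fold change with its standard error for 6 GABA-A receptor genes at 2.0 µM against DMSO, A53T and vector cultures side by side, neighbouring genes grouped; filled points have an adjusted p under 0.05. Gabrb1 lies above 0 and its neighbour Gabra4 below it in both genotypes.

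Glutamate receptor partner genes also fell more often than they rose at 2.0 µM. Of 15 measured auxiliary genes of AMPA and kainate receptors 9 fell and none rose in A53T (limma), and 10 fell and none rose in vector cultures, with median log2 changes of -0.64 and -0.52 (0.01 and 0.00 over all genes). Over all genes 17.9% fell and 19.7% rose in A53T, and 23.8% fell and 23.4% rose in vector cultures. Cacng8, which encodes a TARP that traffics AMPA receptors, fell by 1.21 ± 0.12 (adjusted p = 2.48e-05) in A53T and fell by 1.36 ± 0.11 (adjusted p = 7.88e-07) in vector cultures. Cnih3, a cornichon gene, fell by 0.65 ± 0.12 (adjusted p = 0.00172) in A53T and fell by 1.26 ± 0.11 (adjusted p = 1.5e-06) in vector cultures. Of 21 postsynaptic scaffold genes 14 fell and none rose in A53T, and 10 fell and none rose in vector cultures, with medians of -0.65 and -0.54, against the same shares of all genes. Dlgap3 fell by 1.10 ± 0.12 (adjusted p = 4.07e-05) in A53T and fell by 1.24 ± 0.10 (adjusted p = 1.16e-06) in vector cultures, and Homer1, which links group I metabotropic receptors to the scaffold, fell by 0.64 ± 0.08 (adjusted p = 0.000173) in A53T and fell by 0.71 ± 0.07 (adjusted p = 7.97e-06) in vector cultures. In A53T at 0.2 µM 17 of the 21 scaffold genes rose and 2 fell (33.6% and 34.2% of all genes), Dlg2 rising by 2.93 ± 0.22 (adjusted p = 2e-06).

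Of 16 GABA receptor associated genes 5 fell and 2 rose in A53T at 2.0 µM, and 4 fell and 2 rose in vector cultures, with medians of -0.09 and -0.19. Of all genes 17.9% fell and 19.7% rose in A53T, and 23.8% fell and 23.4% rose in vector cultures. The falls in vector cultures were near the share of all genes, and nothing is read from them. Gphn, which encodes the scaffold gephyrin, fell by 0.33 ± 0.08 (adjusted p = 0.00714) in A53T and fell by 0.69 ± 0.07 (adjusted p = 6.46e-06) in vector cultures. Among marker lists at 2.0 µM, 10 of 14 glutamatergic genes fell and 1 rose in A53T, 7 of 13 GABAergic genes fell and none rose, 7 of 16 pan-neuronal genes fell and 1 rose, and 6 of 13 astrocyte genes fell and 2 rose (17.9% and 19.7% of all genes, limma). Of 8 oligodendrocyte lineage genes 2 fell and 4 rose in A53T, of 5 fibroblast and vascular genes 1 fell and none rose, and both measured microglia genes rose. In vector cultures 8 of 14 glutamatergic genes fell and 1 rose, 8 of 13 GABAergic genes fell and 1 rose, 9 of 16 pan-neuronal genes fell and none rose, and 9 of 13 astrocyte genes fell and 2 rose (23.8% and 23.4% of all genes). Of the oligodendrocyte lineage genes 3 fell and 1 rose in vector cultures, of the fibroblast and vascular genes 3 fell and none rose, and both microglia genes rose. No measured marker was under 1 normalized count in any library.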

How the data were processed

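Per the labels' protocols, messenger RNA libraries were made with a stranded kit. FastQC, TopHat, HTSeq and the rat build rn6 stand in the submitters' processing notes, with no versions, and no source used here gives the normalization method. The authors deposited 1 table of normalized gene counts, handled as a signal. Low values were whole multiples of a common step (within 0.1 step, for 95% or more of them) in 8 of 17 libraries only, so whole reads were not recovered and no count test was run. Levels are not compared between genes, since transcript lengths are not given. Date-like labels (23 in the table) are not named.

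From these values log2(value + 1) was fitted with limma 3.58.1 in R 4.3.3 (trend, a mean per group, all groups in 1 fit of 15 samples with 9 residual degrees of freedom), and p-values were adjusted by Benjamini-Hochberg over all 11247 genes at a threshold of 0.05. A minimum mean of 1 removed 0 genes, and all 41 receptor genes were tested (means over all libraries from 8.64 to 14781). Values after ± in fold changes are standard errors of log2(value + 1) differences, which understate changes of low genes. Subunit ratios were tested with scipy 1.17.1. Alternatives were other pseudocounts (0.25 and 4), a minimum mean of 50, other scalings, other sample sets, replicate blocks and leaving out libraries. RefSeq symbols matched all 41 genes.

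The receptor genes and the lists of partner and marker genes were chosen with earlier results of these data known. Values in every library are given for the 6 called genes with the largest change in each comparison with DMSO or vector, and for chosen subunit genes, among them Gria1, Gria2, Grin1, Grin2a, Grin2b, Grm5, Gabbr1 and Gabbr2. Some genes these rules name enter the counts but are not reported here individually. Partner genes are named by smallest p, at most 4 per list.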

Additional observations from a re-analysis of the deposited data

Results flagged for a closer look

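The change of 3 receptor genes at 2.0 µM FK506 against DMSO differed between A53T and vector cultures by the test of the difference itself. On the log2 scale the A53T change minus the vector change was 1.59 for Grin2c, 0.717 for Grik1 and -0.657 for Grin2b. Grin2c fell in vector cultures and did not pass in A53T cultures. Grik1 fell in both, by less in A53T cultures. Grin2b rose in vector cultures and did not pass in A53T cultures, whose DMSO libraries already lay above those of vector cultures. The Grin2b difference did not pass under quantile normalization.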

How the results depend on the processing

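Counts of called receptor genes were recomputed under each alternative. They changed by no more than 1.5 times with a pseudocount of 0.25 or 4, a minimum mean of 50, median-of-ratios scaling and quantile normalization. The genes behind a count could still differ. Under quantile normalization the difference of the changes passed upward in 3 genes and downward in none, where the main fit had 2 and 1. With only the groups compared in the fit, 18 passed for A53T against vector in DMSO and not 6 (37.1% and 14.0% of all genes). A53T against vector at 2.0 µM gave 4 and not 8 (6.12% and 19.6%). In A53T at 2.0 µM against DMSO 11 passed and not 21 (15.9% and 37.6%). With all 17 libraries as separate samples the difference of the changes passed in 5 genes and not in 3 (21.0% and 14.6% of all genes). Without the 3 libraries that stood apart, 18 passed for A53T against vector in DMSO (39.0% of all genes) and 19 at 2.0 µM (33.5%). In that fit 24 passed for vector at 0.2 µM (52.4%) and 33 for 2.0 against 0.2 µM in vector (48.0%). The difference of the changes passed in 17 (37.8%). For A53T against vector in DMSO none of the removed libraries is in either group. Its fold changes therefore stayed the same (median 0.07 in both fits), and only the spread shared over the fit differed. For the other comparisons the cause was not tested. Leaving out 1 library gave 3 to 8 for A53T in DMSO, 3 to 10 for vector at 0.2 µM, 15 to 20 for vector at 2.0 µM, 6 to 25 for A53T at 2.0 µM, 25 to 33 for A53T at 0.2 µM, 16 to 28 for 2.0 against 0.2 µM, 6 to 12 for A53T against vector at 2.0 µM and 1 to 5 for the difference of the changes. That last count was 1 without the unnumbered A53T DMSO library and 5 without replicate 1 of vector at 0.2 µM or replicate 3 of A53T at 2.0 µM. Over all genes the share called also differed between these fits, and nothing particular to receptor genes is read from the ranges. Deviations of same-numbered libraries from their group means correlated at -0.51 to 0.67. With 2 or 3 libraries in a group the deviations are tied to each other. These correlations therefore cannot decide whether the numbers pair the samples, and the main fit used no pairing. A replicate block by title numbers leaves out the unnumbered library and so keeps 1 A53T DMSO library. Median log2 values of the receptor genes were then 0.11 for A53T in DMSO, -0.59 for A53T at 2.0 µM and -0.20 for the difference of the changes. Fewer receptor genes passed in these 3 comparisons than in the main fit, and fewer of all genes too. A block by column numbers gave 4, 19 and 3 (10.4%, 35.0% and 11.0% of all genes). A53T at 0.2 µM was left out of the block fits. Grin1 in A53T at 0.2 µM, at 0.00 on the log2 scale, passed upward at 0.32 under quantile normalization. The raw depth is unknown, and the small groups limit what can be detected.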

Other observations

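Promoters of the 25 receptor genes with one in the RefSeq table had a median GC content of 60.3%, against 51.7% over all 33469 promoters. Of these 25, the 4 that fell in A53T cultures at 0.2 µM against DMSO had a median of 71.3% (58.7% to 76.3%), and the 15 that rose there had a median of 60.3% (37.3% to 82.3%). The ranges overlap, the fold changes rest on 1 sample and the relation was not tested. Grin3b and Grm6 were the receptor genes that passed in none of the 8 comparisons. Grin3b ran from 5.83 to 26.4 normalized counts over all libraries, and Grm6 from 10.6 to 50.2.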
